A study of Mus musculus with 10 samples.

Results

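The cytosolic ribosomal protein genes encode the proteins that, with the ribosomal RNAs, build the small and the large subunit of the ribosome. They were taken here as the protein-coding gene models with a symbol that starts with Rps or Rpl followed by a number and an optional ending for a paralog, together with the stalk genes, whose symbols start with Rplp, and Rpsa. This gave 76 of the 42465 gene models in the table, 46 of the large subunit and 30 of the small subunit. Of these, 72 reached 0.5 FPKM (fragments scaled to the length of the gene model and to the depth of the library) in 5 or more of the 10 libraries and were tested, 42 of the large and all 30 of the small subunit. The libraries came from neural tubes of mouse embryos at embryonic day 9.5, cultured as explants together with the neural crest cells that leave them. There were 5 libraries labelled Ednrb-/-, after the gene of the endothelin receptor type B, and 5 wild type (WT) libraries. Both genotypes grew for 4 days with 20 nM EDN3, the ligand of that receptor, and 10% serum. The labels call the 5 libraries of a genotype biological replicates and give neither the allele, the strain background nor the number of explants in a library, so p values measure the spread between these libraries.

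Each ribosome holds a single copy of most of these proteins, and cells make them in matched amounts. Many of their mRNAs start with a C followed by a run of pyrimidines, the terminal oligopyrimidine or TOP motif, through which mTORC1 and the RNA-binding protein LARP1 set how much of the mRNA is translated. When ribosome assembly fails, free Rpl5 and Rpl11 bind Mdm2 and p53 accumulates. In mice this response has a known link to pigment: mutations in Rps19 and Rps20 darken the skin through p53 and the Kit ligand, and mutations in Rps7, Rpl24 and Rpl38 are known for belly spots or short and kinked tails.

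The start sites are shown because the TOP motif lies there. RefSeq promoter windows (GRCm38.p6) matched 59 of the 76 members by symbol, with 71 annotated starts. C or T filled the first 5 transcribed bases at 21.1% of these starts, against 4.44% of all 32851 RefSeq starts. A run of at least 8 C or T between 10 bases before and 15 bases after the start was found at 31.0% of the member starts and 9.49% of all starts. The 30 bases around the annotated start are given 5′ to 3′ for 8 members whose values are described further on, 15 bases on each side, with the C or T run that holds the first transcribed base in capitals; Rps24 is shown at the upstream of its annotated starts.
Rpl15 (chr14:18270972-18271001, minus strand): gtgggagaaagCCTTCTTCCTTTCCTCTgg
Rpl27a (chr7:109519180-109519209, plus strand): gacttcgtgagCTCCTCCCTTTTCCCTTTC
Rpl38 (chr11:114668565-114668594, plus strand): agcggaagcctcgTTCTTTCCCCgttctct
Rps6 (chr4:86857353-86857382, minus strand): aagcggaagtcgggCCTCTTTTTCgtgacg
Rps10 (chr17:27635230-27635259, minus strand): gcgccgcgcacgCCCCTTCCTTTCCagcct
Rps24 (chr14:24490663-24490692, plus strand): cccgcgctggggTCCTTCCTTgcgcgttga
Rps2 (chr17:24720048-24720077, plus strand): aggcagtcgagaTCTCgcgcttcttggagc
Rpl26 (chr11:68901551-68901580, plus strand): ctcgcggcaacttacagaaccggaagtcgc
The run is long in the first 6 of these, short in Rps2 and missing at the annotated first base of Rpl26. Within the 300 bases of each window, CGGAAG, the core letters bound by ETS factors, stood on either strand at 59.2% of member starts and 16.9% of all starts. GGGCGG, the letters bound by SP1, stood on either strand at 59.2% of member starts and 35.7% of all starts, and AAGATGG, a core of the YY1 motif, at 15.5% of member starts and 6.34% of all starts. TATAAA between 40 and 20 bases before the start was found at 1.41% of member starts and 1.87% of all starts. These shares describe letters in the windows and not binding.

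Ednrb itself averaged 7.15 ± 3.41 FPKM in Ednrb-/- and 52.3 ± 7.16 in WT libraries (SD, n = 5 each). Reads worked back came to between 13022266 and 19532570 per library. The explants differed in cell markers. Of those tested, 10 of 10 smooth muscle markers fell (median log2 fold change -2.58) and 11 of 11 neuron markers rose (median 0.58). Of the tested melanocyte markers 5 of 6 fell, and of the tested fibroblast-like markers 5 of 6 fell and 1 rose. Of the epithelial markers 3 of 3 tested fell, and of the striated muscle markers 2 of 3 tested. The filter can be met by WT libraries alone, which favours falls among low markers. Mlana, for example, averaged 0.34 ± 0.33 FPKM in Ednrb-/- and 5.13 ± 4.45 in WT libraries. Of the neural progenitor markers 1 of 8 rose and 1 fell, and no blood or germ cell marker passed the filter, with sums of at most 0.892 and 1.01 FPKM in any library. The summed level of the smooth muscle markers was 50.2 to 296 FPKM in Ednrb-/- and 337 to 2553 FPKM in WT libraries, and that of the neuron markers 1803 to 2063 FPKM in Ednrb-/- and 1114 to 1438 FPKM in WT libraries. Ednrb-/- replicate 5 and WT replicate 3 stood apart in the members themselves.

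No member passed the test between the genotypes. By limma on log2(FPKM + 0.5), with p values adjusted by Benjamini-Hochberg over all 15156 genes tested, 0 of the 72 members passed the threshold of 0.05, whereas 19.5% of all genes tested did (6.53% higher and 13% lower in Ednrb-/-). At an unadjusted limma p under 0.05 there were 6 members, 8.33% of the 72, against 33.1% of all genes tested. limma voom on reads worked back from the FPKM also called 0 members, with a lowest adjusted p of 0.0620. The Ednrb-/- and WT libraries overlapped in all 72 members, while 13.2% of all genes tested had groups that did not overlap (4.78% higher and 8.44% lower). Of the members, 54 had a higher and 18 a lower mean log2 level in Ednrb-/- libraries, and none of these directions passed the test. The split moved with single libraries. It was 36 higher and 36 lower without Ednrb-/- replicate 5, 38 higher and 34 lower without WT replicate 3, 43 higher and 29 lower without Ednrb-/- replicate 1, and 44 higher and 28 lower without WT replicate 5.

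The estimated differences were small. The median log2 fold change (Ednrb-/- minus WT) was 0.08 over the 72 members, beside 0.0048 over all genes tested, and the median of the members was 0.0013 without Ednrb-/- replicate 5 or 0.012 without WT replicate 3. The members ran from -0.48 for Rps2 to 0.77 for Rps28. The large subunit members had a median of 0.10, with 30 higher and 12 lower, and the small subunit members a median of 0.08, with 24 higher and 6 lower. Without Ednrb-/- replicate 5 the large subunit median was -0.0011, with 21 higher and 21 lower, and the small subunit median 0.0013, with 15 higher and 15 lower. Without WT replicate 3 the medians were 0.0098 for the large and 0.012 for the small subunit. Without Ednrb-/- replicate 1 the medians were 0.06 and 0.04, and without WT replicate 5 0.06 and 0.05; without Ednrb-/- replicate 2 or 4 or WT replicate 1 or 4 both lay between 0.13 and 0.21, and without WT replicate 2 the small subunit median was 0.13. A p that misses the threshold does not show equality, so the intervals matter: the 95% interval lay wholly within a 2-fold change for 67 of the 72 members (93.1%), against 75.2% of all genes tested. It lay within a 1.5-fold change for 41 of the 72 members, a larger share than the 45.6% of all genes tested.

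**Figure D1:**
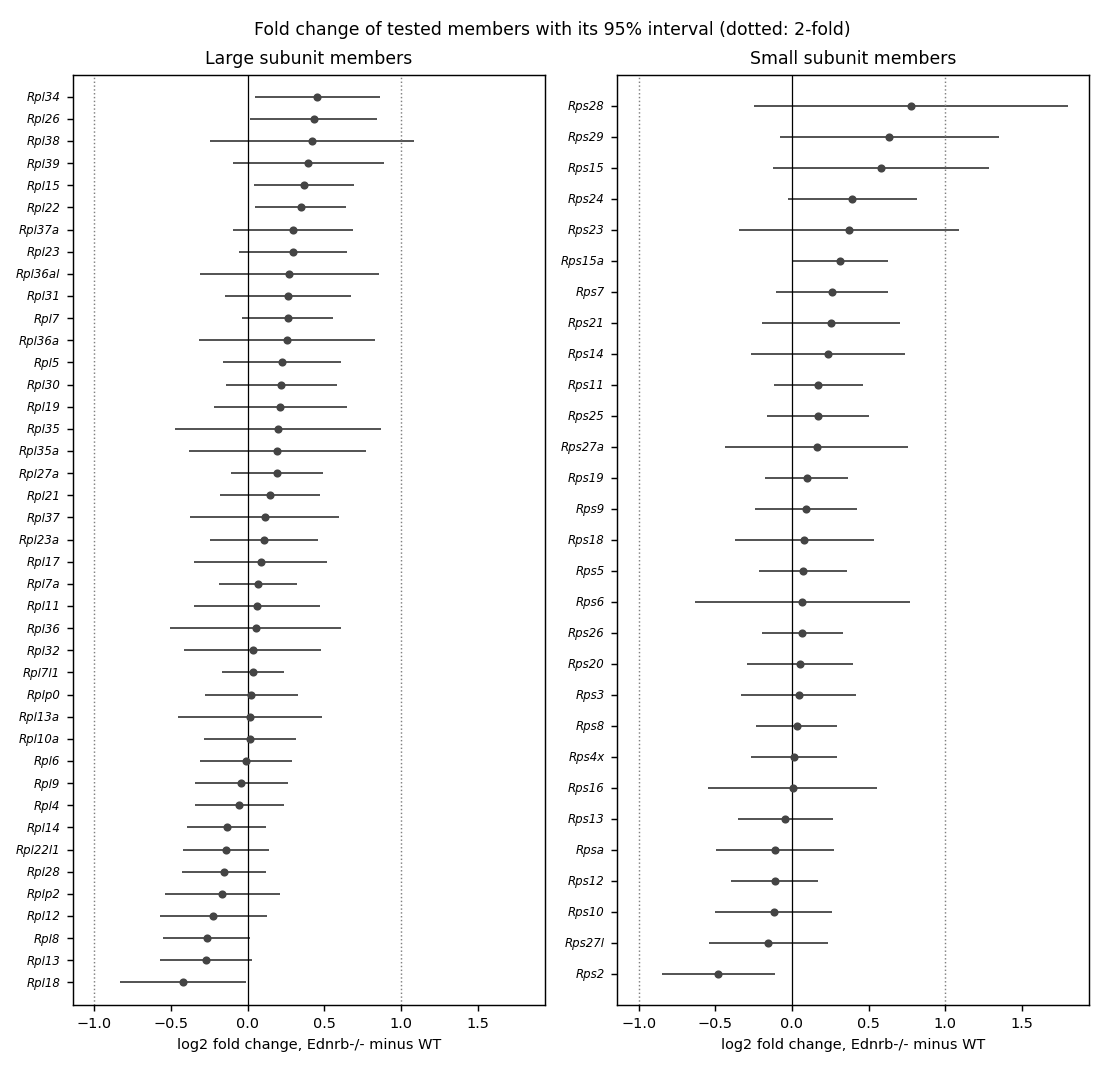
Log2 fold change (Ednrb-/- minus WT, horizontal axis) of 70 tested members, those of the large subunit (left) and of the small subunit (right), with limma's 95% interval as a bar; dotted lines mark a 2-fold change. The points run from -0.48 (Rps2) to 0.77 (Rps28), and 65 of the 70 intervals stay between the dotted lines.

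As a set, the members held 5.26, 4.45, 4.92, 4.29 and 5.77% of the summed FPKM in Ednrb-/- replicates 1 to 5, against 5.47, 4.85, 3.85, 5.12 and 4.21% in WT replicates 1 to 5. The means were 4.94 ± 0.60% in Ednrb-/- and 4.70 ± 0.66% in WT libraries (SD, n = 5 each), a difference smaller than either SD. The lowest share was that of a WT library and the highest that of an Ednrb-/- library, and the groups overlapped. The difference of 0.239 percentage points was 0.0322 without Ednrb-/- replicate 5 and 0.0266 without WT replicate 3. Of the reads worked back, the members held 2.02 ± 0.34% in Ednrb-/- and 1.85 ± 0.34% in WT libraries. The summed FPKM of small over large subunit members was 0.879 ± 0.027 in Ednrb-/- and 0.863 ± 0.031 in WT libraries (SD, n = 5 each), so the balance of the subunits also differed by less than 1 SD.

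**Figure D2:**
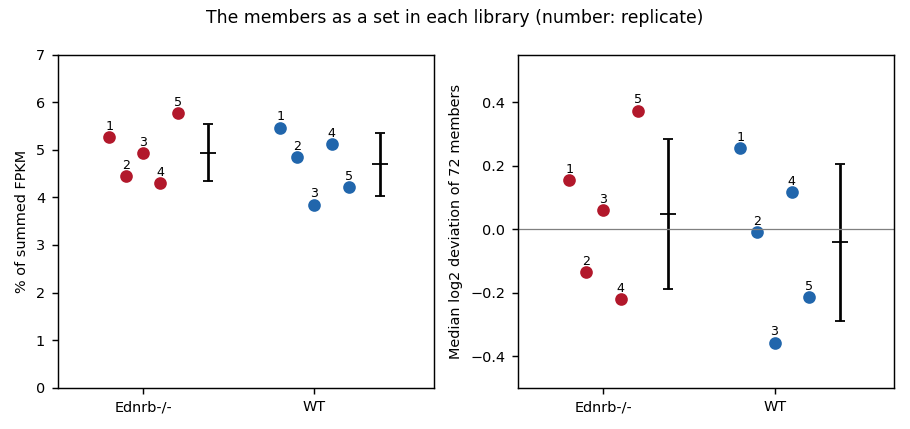
Left, percent of the summed FPKM held by the members in each library; right, the median over the 72 tested members of the deviation of log2(FPKM + 0.5) from the member's mean over 10 libraries. Points are libraries with their replicate numbers, and bars give the mean and SD of 5 libraries. Ednrb-/- replicate 5 is highest at 5.77% and WT replicate 3 lowest at 3.85%, and the genotypes overlap in both panels.

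The members moved together from library to library. The median deviation of the members from their own mean was 0.15, -0.14, 0.06, -0.22 and 0.37 log2 units in Ednrb-/- replicates 1 to 5 and 0.26, -0.01, -0.36, 0.12 and -0.21 in WT replicates 1 to 5. Ednrb-/- replicate 5 held the highest value of 43 of the 72 members and WT replicate 3 the lowest of 36. The median over all genes tested lay between -0.03 and 0.02 in every library. That median mixes genes that move in opposite directions, so it is no gauge for a set that moves together. Beside the members' shifts stand the smooth muscle markers, of which 10 of the 10 tested fell. Their mean log2 level was 3.05, 2.77, 1.61, 3.22 and 1.45 in Ednrb-/- replicates 1 to 5, against 5.07, 3.33, 5.88, 5.58 and 5.28 in WT replicates 1 to 5. The lowest level was in Ednrb-/- replicate 5, where the members were highest, and the highest in WT replicate 3, where they were lowest. The fibroblast-like markers had their extremes in the same libraries, with mean log2 levels of 1.39 in Ednrb-/- replicate 5 and 5.14 in WT replicate 3. WT replicates 1 and 4 had high smooth muscle levels and members above their mean, and Ednrb-/- replicate 3 had a low level with members near their mean. The part of cell content in the member levels was not tested, and in bulk RNA fewer cells of a type and less RNA per cell cannot be told apart. A fit with the smooth muscle level as a covariate gave the members a median log2 fold change of -0.17, and in it 0 of all genes passed, Ednrb included.

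**Figure D3:**
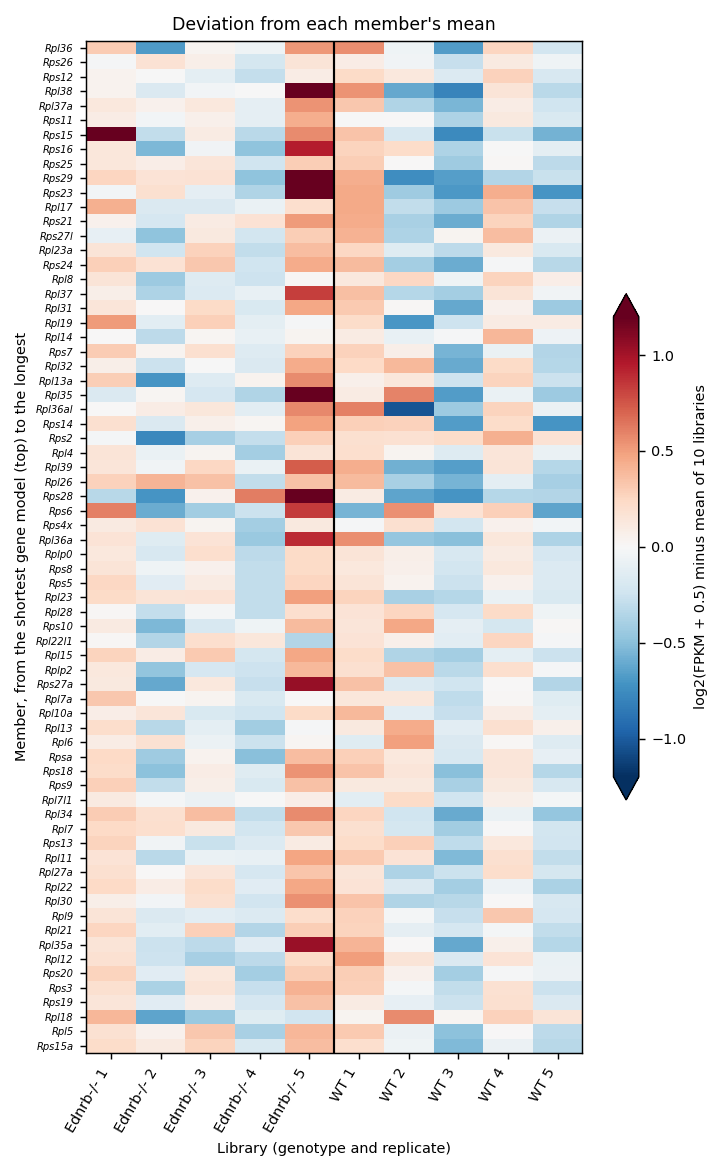
Deviation of log2(FPKM + 0.5) from the mean of the 10 libraries for 70 of the tested members, Ednrb-/- libraries left of the black line and WT libraries right of it, with members ordered from the shortest to the longest gene model; values past the ends of the colour scale have the end colour. Most members are high in Ednrb-/- replicate 5 and low in WT replicate 3, and no column block separates the genotypes.

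The members were among the most abundant mRNAs. Their median level was 124 FPKM over the 10 libraries, against 6.84 FPKM for all genes tested, and 44 of the 72 lay above 100 FPKM. The levels still spanned 205-fold. The highest were Rps26, at the mRNA exit channel, with 729 ± 77 FPKM in Ednrb-/- and 695 ± 71 in WT libraries (SD, n = 5 each), Rpl8 at the peptidyl transferase centre, Rps7, Rpl4 of the peptide exit tunnel and Rplp0, the base of the stalk. Rpl8 had 576 ± 91 FPKM in Ednrb-/- and 688 ± 61 in WT libraries, a log2 fold change of -0.27 (95% interval -0.55 to 0.02, limma adjusted p = 0.176).

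At the low end were Rps28, Rpl18, Rpl19 and Rps27a, which encodes ubiquitin fused to a small subunit protein. Rps27a had 3.82 ± 2.1 FPKM in Ednrb-/- and 3.13 ± 0.72 in WT libraries. The low value of Rpl19 stands beside reads that the table gives to other models of the same protein: 86.5% of the reads for the Rpl19 protein lay in other models, most of them processed pseudogenes. The model length in the table also varied, between 404 and 6270 bases, and FPKM divides by it. The median level was 308 FPKM for the 23 members with models under 1000 bases, 112 FPKM for the 30 between 1000 and 2500 bases and 74.1 FPKM for the 19 above. Spearman's rho of level with length was -0.50 over the 72 members, which share the libraries. Fold changes between genotypes compare a gene with itself and use a single length. The median log2 fold change was 0.17 for models under 1000 bases, 0.04 between 1000 and 2500 bases and 0.10 above. Whether model length bears on the fold changes was not tested.

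**Figure D4:**
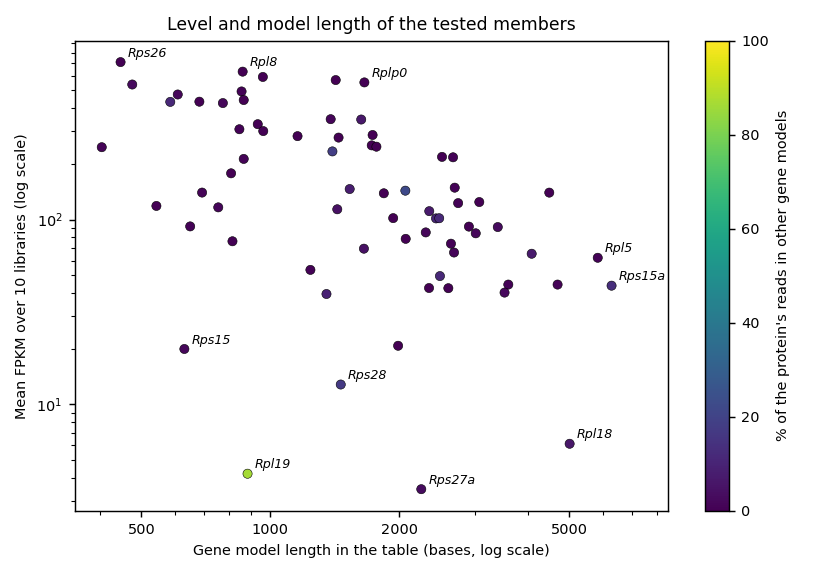
Mean FPKM over 10 libraries (vertical, log scale) against the length of the gene model in the table (horizontal, log scale) for 70 of the tested members, coloured by the percent of the protein's reads that lie in other gene models. Levels are lower in longer models (Spearman's rho -0.52), and Rpl19, with 86.5% of its protein's reads in other models, lies near the bottom.

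Rps2, a small subunit protein near the mRNA entry, was the member with the lowest p, and was named after its values were seen. It had 224, 133, 172, 186 and 277 FPKM in Ednrb-/- replicates 1 to 5, against 260, 258, 265, 306 and 256 FPKM in WT replicates 1 to 5. Of the Ednrb-/- libraries 4 lay below every WT library and replicate 5 lay among them. The log2 fold change was -0.48 with a standard error of 0.17 (95% interval -0.85 to -0.11, limma adjusted p = 0.0693). Leaving out Ednrb-/- replicate 5 gave -0.61, past the threshold (adjusted p = 0.0209), as did TPM scaling (0.0436) and quantile normalization (0.0357). Of the Rps2 protein's reads 18.0% lay in other models.

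Rpl18, of the large subunit, was the other member lower at an unadjusted p under 0.05. It had 7.99, 3.65, 4.21, 5.30 and 4.97 FPKM in Ednrb-/- replicates 1 to 5, against 6.09, 9.04, 6.01, 7.31 and 6.65 in WT replicates 1 to 5. Ednrb-/- replicate 1 lay within the WT range and the other 4 below it. Its log2 fold change was -0.42 (95% interval -0.83 to -0.01, limma adjusted p = 0.140). Leaving out Ednrb-/- replicate 1 gave -0.58 (adjusted p = 0.0260).

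The 4 members higher at an unadjusted p under 0.05 were all of the large subunit: Rpl15, Rpl22, Rpl26 and Rpl34. Rpl15 had 169, 149, 175, 121 and 193 FPKM in Ednrb-/- replicates 1 to 5, against 163, 110, 106, 130 and 118 in WT replicates 1 to 5, a log2 fold change of 0.37 (95% interval 0.04 to 0.69, limma adjusted p = 0.108). Ednrb-/- replicate 4 lay among the WT libraries and WT replicate 1 among the Ednrb-/- libraries. Of the Rpl15 protein's reads 22.2% lay in other models. Rpl22, which mouse lymphocytes need for their development, had 106, 95.6, 105, 81.7 and 124 FPKM in Ednrb-/- replicates 1 to 5, against 101, 79.7, 67.6, 86.2 and 69.3 in WT replicates 1 to 5 (log2 fold change 0.35, 95% interval 0.05 to 0.64, limma adjusted p = 0.0957). Ednrb-/- replicate 4 lay below WT replicates 1 and 4, and WT replicate 1 lay above Ednrb-/- replicate 2. Rpl26, whose human protein binds p53 mRNA, averaged 317 ± 56 FPKM in Ednrb-/- and 238 ± 67 in WT libraries (log2 fold change 0.43, limma adjusted p = 0.134), and Rpl34, named after its values were seen, 85.6 ± 18 FPKM in Ednrb-/- and 62.5 ± 15 in WT libraries (log2 fold change 0.46, limma adjusted p = 0.109; SD, n = 5 each). Without Ednrb-/- replicate 4 all 4 passed the threshold, with adjusted p values between 0.0306 and 0.0415, and without WT replicate 1 they passed together with Rps24, with adjusted p values between 0.0271 and 0.0451. Rpl15 carries a long pyrimidine run at the start, and Rps24 and Rpl34 carry a long run at an annotated start but none at another. In Rpl34 only 3 bases of that run are transcribed, and the rest lies upstream of the start. Rpl26 and Rpl22 carry none at the annotated first base.

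**Figure D5:**
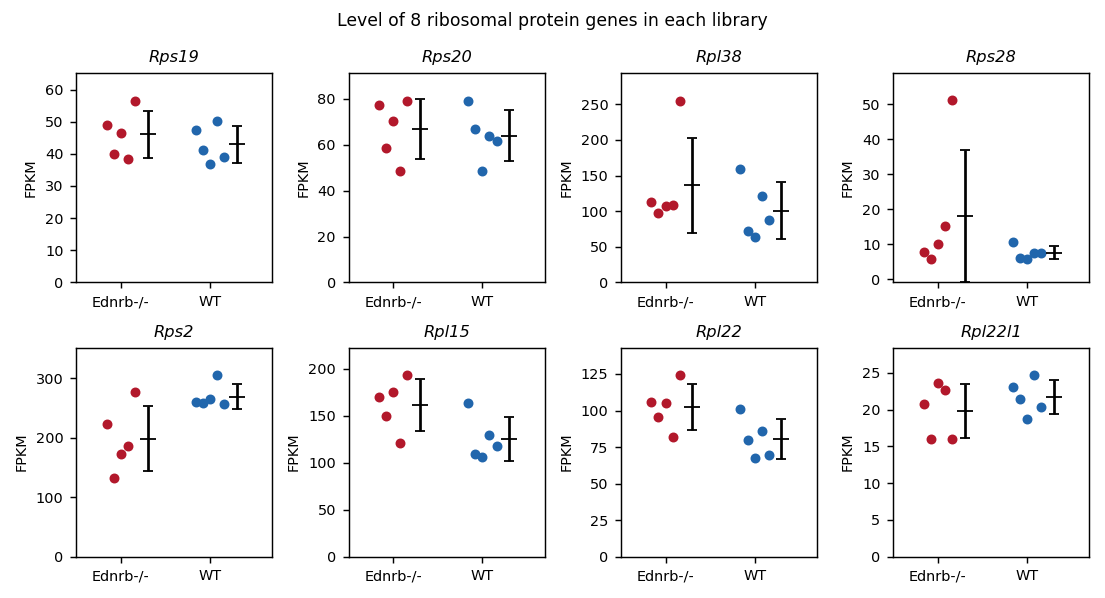
FPKM of 8 members in each Ednrb-/- library (red, left) and each WT library (blue, right); bars give the mean and SD of 5 libraries, and points run from replicate 1 to 5. The genotypes overlap in every panel, and Ednrb-/- replicate 5 stands apart for Rpl38 (255 FPKM) and Rps28 (51.1 FPKM).

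The largest positive estimates, those of Rps28, Rps29 and Rps15, were smaller but still positive with a single library left out. Rps28 had 7.75, 5.83, 10.2, 15.3 and 51.1 FPKM in Ednrb-/- replicates 1 to 5, against 10.6, 6.19, 5.83, 7.66 and 7.61 in WT replicates 1 to 5. Replicate 5 was the highest library by far, replicate 4 also lay above every WT library, and the other 3 Ednrb-/- libraries lay between 5.83 and 10.2, beside a WT range of 5.83 to 10.6. The log2 fold change was 0.77 (95% interval -0.25 to 1.80, limma adjusted p = 0.276), and 0.29 without Ednrb-/- replicate 5. Rps29 and Rps15 were named after their values were seen. Rps29 had 349 FPKM in Ednrb-/- replicate 5 and 151 or less in the other Ednrb-/- libraries, against 75.1 to 170 in WT libraries (log2 fold change 0.64, and 0.35 without that replicate). Rps15, whose protein reaches the decoding site, had 48.5 FPKM in Ednrb-/- replicate 1 and between 14.2 and 27 in the other Ednrb-/- libraries, against 10.4 to 22.9 in WT libraries (log2 fold change 0.58, and 0.30 without that replicate).

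None of the members known for a pigment, skin or tail phenotype in mice passed the test. Rps19, a dark skin gene, had 48.9, 40.01, 46.5, 38.3 and 56.6 FPKM in Ednrb-/- replicates 1 to 5, against 47.3, 41.2, 36.8, 50.3 and 39.0 in WT replicates 1 to 5 (log2 fold change 0.10, 95% interval -0.17 to 0.37, limma adjusted p = 0.636). Rps20, the other dark skin gene, had 77.4, 58.5, 70.2, 48.5 and 79.0 FPKM in Ednrb-/- replicates 1 to 5, against 79.2, 66.8, 48.5, 63.9 and 61.4 in WT replicates 1 to 5 (log2 fold change 0.05, 95% interval -0.29 to 0.40). The genotypes lay over one another in both genes, and a loss or gain of 1.5-fold was outside both intervals. Rps7, mutated in mice with belly spots, averaged 641 ± 82 FPKM in Ednrb-/- and 542 ± 123 in WT libraries (log2 fold change 0.26, limma adjusted p = 0.302). Rpl38, the Tail short gene, which aids translation of Hox mRNAs, had 113, 97.6, 107, 109 and 255 FPKM in Ednrb-/- replicates 1 to 5, against 159, 71.5, 63.1, 122 and 87.5 in WT replicates 1 to 5 (log2 fold change 0.42, 95% interval -0.25 to 1.08, limma adjusted p = 0.371). Replicate 5 was the highest of the 10 libraries, and the other 4 Ednrb-/- libraries lay inside the WT range. The log2 fold change of Rpl38 was 0.17 without that replicate and 0.27 without WT replicate 3. Rpl27a, mutated in the sooty foot ataxia mouse, averaged 131 ± 18 FPKM in Ednrb-/- and 115 ± 21 in WT libraries (log2 fold change 0.19). Kitl, the Kit ligand gene, averaged 7.96 ± 5.88 FPKM in Ednrb-/- and 4.32 ± 1.01 in WT libraries and did not pass (limma adjusted p = 0.392).

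Rpl24, the Belly spot and tail gene, lay below the filter. Its symbol had between 0 and 0.644 FPKM in Ednrb-/- libraries and between 0.283 and 1.18 in WT libraries, on 70 reads in all 10 libraries. Of the reads that the table gives to models of this protein, 89.3% lay in other models, so its level is not read from the symbol. The other members below the filter were the paralogs Rpl3l, Rpl10l and Rpl39l, known from muscle or testis. Rpl39l was listed at 0 in every library, Rpl10l had 0.0601 FPKM in Ednrb-/- replicate 4 alone, and Rpl3l had 0.0614 FPKM in Ednrb-/- replicate 1 and 0.147 in WT replicate 1.

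Genes mutated in human Diamond-Blackfan anaemia, an inherited failure of red cell production, include several members besides Rps19, and none of them passed. Rpl5 averaged 67.0 ± 13 FPKM in Ednrb-/- and 57.3 ± 13 in WT libraries, and Rpl11, its partner on Mdm2, 152 ± 33 FPKM in Ednrb-/- and 146 ± 35 in WT libraries (SD, n = 5 each; log2 fold changes 0.22 and 0.06). Rps24 averaged 556 ± 93 FPKM in Ednrb-/- and 431 ± 122 in WT libraries (log2 fold change 0.39, limma adjusted p = 0.180). Rps26 and Rps10 had log2 fold changes of 0.07 and -0.12. Rpl35a had 79.1 FPKM in Ednrb-/- replicate 5 and 42.5 or less in the other Ednrb-/- libraries, with a log2 fold change of 0.19 that was -0.04 without that replicate and 0.06 without WT replicate 3. Without Ednrb-/- replicate 5 the log2 fold change of Rpl11 was -0.05 and that of Rps10 -0.23. Rps14, lost in human 5q- syndrome, had a log2 fold change of 0.24, and Rpsa, mutated in human congenital asplenia, one of -0.11.

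Rps6, the substrate of the S6 kinases below mTORC1, varied widely. It had 208, 90.5, 102, 114 and 245 FPKM in Ednrb-/- replicates 1 to 5, against 92.8, 201, 155, 167 and 87.9 in WT replicates 1 to 5. High and low libraries occurred in both genotypes, and the log2 fold change was 0.07 (95% interval -0.64 to 0.77).

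Some members have a paralog, and 3 pairs were compared as the log2 ratio of paralog to parent. Whether a paralog protein took the parent's place in the ribosome was not tested. The ratio of Rpl22l1 to Rpl22, where in mice the parent protein holds down its paralog, was -2.32, -2.54, -2.13, -1.83 and -2.92 in Ednrb-/- replicates 1 to 5, against -2.10, -1.86, -1.82, -1.78 and -1.74 in WT replicates 1 to 5. All Ednrb-/- libraries but replicate 4 lay below every WT library. The means were -2.35 ± 0.41 in Ednrb-/- and -1.86 ± 0.14 in WT libraries, a difference of -0.49 (SD, n = 5 each; exact two-sided permutation p = 0.0317, adjusted over the 3 pairs 0.0952). Without Ednrb-/- replicate 4 the adjusted value was 0.0476. Rpl22l1 itself averaged 19.8 ± 3.6 FPKM in Ednrb-/- and 21.7 ± 2.3 in WT libraries. The ratio of Rpl7l1 to Rpl7 differed by -0.23 (exact permutation p = 0.167, adjusted 0.250) and that of Rpl36al to Rpl36a by 0.016 (exact permutation p = 0.952).

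Ribosomal protein genes have many processed pseudogenes, whose reads cannot always be told from those of the parent. Of the 76 members, 74 had at least 1 other model annotated with the same protein, 1190 of them pseudogenes. The other models held 5.25% of the reads assigned to models of these proteins. Of this, 2.35 percentage points lay in pseudogene models and 2.34 in a single model annotated as protein-coding, Rpl10-ps3. In 57 members under 5% of the protein's assigned reads lay in other models. Reads assigned to no model are not in these shares, which therefore do not bound what pseudogenes take from a parent. With the assigned reads of all models of a protein summed, which was chosen after seeing the data, again 0 members passed. The median log2 fold change was then 0.09. Of 96 pseudogene models tested 1 rose, a processed pseudogene of Rps29 with 2.24 ± 1.21 FPKM in Ednrb-/- and 0.744 ± 0.509 in WT libraries (log2 fold change 1.13, limma adjusted p = 0.0366), and 0 fell. Some ribosomal proteins have gene models that the symbol rule missed and that the file's descriptions name, and these did not pass either. Rps3a1 averaged 687 ± 76 FPKM in Ednrb-/- and 694 ± 126 in WT libraries, and the model described as ribosomal protein L3 139 ± 28 FPKM in Ednrb-/- and 139.9 ± 19 in WT libraries (log2 fold changes -0.0029 and -0.02). Larger estimates occurred in both directions, and the next models were picked after their values were seen. A processed pseudogene model described as ribosomal protein L29 had a log2 fold change of 0.57 (limma adjusted p = 0.145). A protein-coding model described as ribosomal protein L40 had one of -0.56 (limma adjusted p = 0.195).

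Among genes that help to make or regulate ribosomes, the pooled share that passed the test lay below that of all genes tested in both directions. The pool holds the 74 mitochondrial ribosomal protein genes, of which 5 rose and 0 fell. In the other lists together, the share that fell lay above that of all genes tested. Of 249 genes tested in 9 lists, 8 rose (3.21%) and 27 fell (10.8%) in Ednrb-/- libraries, beside the 6.53% higher and 13% lower of all genes tested. Leaving out single libraries took the count of rises to 5 without Ednrb-/- replicate 1 or 2, to 4 without WT replicate 4, and to 3 without Ednrb-/- replicate 3 or 5 or WT replicate 3 or 5, and the count of falls to 17, 16 and 17 without WT replicates 3, 4 and 5. Of 63 ribosome assembly factors 9 fell (14.3%) and 0 rose, with a median log2 fold change of -0.13. They included Utp20, of the small subunit processome, with 4.64 ± 1.02 FPKM in Ednrb-/- and 9.70 ± 2.36 in WT libraries, and the nucleolar methyltransferase gene Nop2 (log2 fold change -0.57). Of 15 genes of RNA polymerase I and its factors, Polr1a, the largest subunit, fell (-0.42) and Znrd1, a small subunit, rose (0.42), with adjusted p values of 0.0457 and 0.0407 that missed the threshold when any of Ednrb-/- replicates 1, 2, 3 and 5 or WT replicates 2 to 5 was left out (0.0583 to 0.120). Myc, the transcription factor that drives ribosome production, fell to 8.16 ± 0.89 FPKM in Ednrb-/- libraries, against 14.2 ± 3.7 in WT libraries (SD, n = 5 each; log2 fold change -0.73, limma adjusted p = 0.00814), and its antagonist Mxi1 rose (0.45). The other 7 genes of the MYC list did not pass, and the list median was 0.10. The related gene Mycn, named after its values were seen, averaged 20.9 ± 2.75 FPKM in Ednrb-/- and 17.0 ± 2.74 in WT libraries. Its log2 fold change was 0.30 and did not pass (limma adjusted p = 0.119). In the fit with the smooth muscle level as a covariate 0 genes of these lists passed; the part of the cell markers in these changes was not tested.

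Among translation genes, Eif4ebp1, the mTORC1 target that blocks cap binding, fell to 10.1 ± 3.4 FPKM in Ednrb-/- libraries, against 36.2 ± 8.3 in WT libraries (log2 fold change -1.82, limma adjusted p = 0.00276). On the list of translation initiation 4 of 30 genes fell (13.3%, beside 13% of all genes tested) and 0 rose, the others being Eif3b, Eif4g1 and Eif3a at -0.46, -0.43 and -0.34. In the list of mTORC1 and LARP1 4 of 16 fell (25%). Among them was Larp1 itself, with 20.7 ± 2.67 FPKM in Ednrb-/- and 29.5 ± 4.92 in WT libraries (log2 fold change -0.49, limma adjusted p = 0.0236). The mTORC1 inhibitor genes Akt1s1 (-0.50) and Deptor (-1.50) also fell. Deptor was near the floor, with 0.37 ± 0.27 FPKM in Ednrb-/- and 1.91 ± 0.57 in WT libraries. Its WT libraries were enough to meet the filter, and of the Ednrb-/- libraries only replicates 1 and 4 reached 0.5 FPKM. Larp1 missed the threshold without Ednrb-/- replicate 2, 3 or 5 or WT replicate 3, 4 or 5 (0.0530 to 0.0640), and Akt1s1 without Ednrb-/- replicate 3 or 5 or WT replicate 3, 4 or 5 (0.0524 to 0.0709). Rps6ka6, a kinase gene of the RSK family, rose (0.55). Mtor did not pass (-0.10, limma adjusted p = 0.574). Of other mRNAs with a TOP motif 3 of 21 fell (14.3%, near the share of all genes), with a list median of 0.04: Vim, an intermediate filament gene of mesenchyme and progenitors, at -1.01, Pabpc1, the poly(A)-binding protein, at -0.42, and the elongation factor gene Eef1d at -0.30, whose adjusted p was 0.0564 without WT replicate 4. These measure mRNA and not translation.

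Genes of the p53 response to failed ribosome assembly fell in 5 of 19 cases (26.3%) and rose in 0, beside 13% lower and 6.53% higher among all genes tested. Cdkn1a, the cell cycle inhibitor p21, fell to 30.5 ± 9.4 FPKM in Ednrb-/- libraries, against 80.5 ± 30 in WT libraries (log2 fold change -1.33, limma adjusted p = 0.00912). Pmaip1 (Noxa), Phlda3 and Gtse1 had log2 fold changes of -2.27, -1.75 and -0.85. Mdm2, named after its values were seen, had one of -0.58, with an adjusted p of 0.0398 that was 0.0547 to 0.0965 when any library but Ednrb-/- replicate 4 or WT replicate 2 was left out. With the smooth muscle level as a covariate Cdkn1a, Pmaip1 and Mdm2 had log2 fold changes of 0.017, 0.10 and 0.078. Those of Gtse1 and Phlda3 were -0.73 and -0.24. In that fit 0 of all genes passed, so missing the threshold there does not tell these genes from others. Trp53 averaged 21.5 ± 4.03 FPKM in Ednrb-/- and 27.9 ± 5.33 in WT libraries and did not pass (limma adjusted p = 0.131). The 74 mitochondrial ribosomal protein genes tested, which build a separate ribosome, held 5 that rose (6.76%, near the 6.53% of all genes tested) and 0 that fell, with a median of 0.10. Mrpl32 led with 37.1 ± 5.42 FPKM in Ednrb-/- and 23.6 ± 3.12 in WT libraries (log2 fold change 0.64, limma adjusted p = 0.00593). Mrpl42, Mrpl47 and Mrpl50 rose by less (0.44, 0.43 and 0.30), and each missed the threshold without any 1 of several libraries, among them Ednrb-/- replicates 3 and 5 and WT replicates 3 and 5 (0.0568 to 0.103). The 2 tested genes among other cytosolic ribosomal protein names did not pass.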

How the data were processed

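RNA was sequenced from 5 Ednrb-/- and 5 WT explant cultures. The authors deposited a table with 1 column of FPKM per library, per the file headers. Per the submitters' processing notes the build was mm10 and the tools featureCounts 1.5.0-p3, HISAT2 2.0.5 and fastp, whereas the gene identifiers are those of the C57BL/6NJ strain. No source used here says whether counting used strand, so overlapping genes on opposite strands cannot be told apart. Columns were matched to samples by genotype and replicate number, with 0 sample columns left over.

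FPKM times model length was a whole multiple of a step per library for 100% of values (within 0.01 of a read), so reads could be worked back. The test was limma 3.58.1 (limma-trend) in R 4.3.3 on log2(FPKM + 0.5) with genotype alone, two-sided, with Benjamini-Hochberg adjustment over the 15156 genes that reached 0.5 FPKM in 5 or more libraries. Fold changes are Ednrb-/- minus WT on that scale, which understates changes of low genes. The words rose and fell mark genes past 0.05. The fit was tested on simulated data before use. Paralog ratios were tested by exact permutation of libraries (scipy 1.17.1), for which the smallest p is 0.00794.

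Replicates of a genotype correlated at 0.925 to 0.979 and differed by more than sampling noise, so each counted singly. Correlations of the deviations of same-numbered libraries lay between -0.163 and 0.153, so the numbers were not taken as pairs.

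The members and lists were chosen with earlier results of these data known. Members named in the text are the 5 highest and 5 lowest by level, those with a mouse or human phenotype, the paralog pairs and up to 10 past the threshold in each direction; of each other list, up to 4 past the threshold with the lowest p. Other names are marked where they occur. Some genes are not reported here.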

Additional observations from a re-analysis of the deposited data

Results flagged for a closer look

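Among the 144 groups of 5 libraries formed by the 72 tested members and 2 genotypes, 12 had a library whose gap to the nearest of the other 4 exceeded 0.71 of the group's range, the 95% critical value of Dixon's test. Chance flags about 1 in 20 groups. The values of 11 of the 12 are given here. Ednrb-/- replicate 5 was that library 7 times, each time as the highest: Rpl37 at 367 FPKM, Rps29 at 349, Rpl38 at 255, Rps23 at 253, Rpl35 at 115, Rpl35a at 79.1 and Rps28 at 51.1 FPKM. These are the same library in 7 genes and so are not 7 independent flags. Ednrb-/- replicate 4 was the lowest for Rps4x (261 FPKM) and Rpl26 (220 FPKM). WT replicate 4 was the highest for Rps2 (306 FPKM) and WT replicate 2 for Rpl6 (141 FPKM).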

How the results depend on the processing

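No member passed under either other pseudocount, either other filter, TMM scaling, scaling to the reads outside the members, a fit without a trend, limma voom, summed models, the smooth muscle covariate or the replicate block, whose lowest adjusted p was 0.110. The counts of members higher were 3 with array weights (Rpl15, Rpl22 and Rpl34) and 0 to 5 when each library was left out. The counts of members lower were 1 under TPM scaling, 2 under quantile normalization (Rps2 and Rpl8) and 0 to 1 when each library was left out. The median log2 fold change of the members ran from 0.0013 to 0.18 when each library was left out, and was -0.17 with the smooth muscle covariate. In the pathway lists 8 genes rose and 27 fell; the rising count was 3 with no filter, 4 without a trend, 17 with array weights, 5 by limma voom, 4 with the replicate block and 0 with the covariate, and 3 to 12 when each library was left out. The falling count was 13 with the replicate block (among the falling genes named, Nop2, Eif4g1, Eif3a, Larp1, Akt1s1, Eef1d and Polr1a then missed the threshold, at 0.0619 to 0.105), 0 with the covariate and 16 to 33 when each library was left out. The Rpl22l1 to Rpl22 difference was -0.62 to -0.34 when each library was left out. The cause of these shifts was not tested, and the covariate is itself tied to genotype, so the effects of both cannot be told apart. In the fit with the covariate 0 genes passed. Cdkn1a, Pmaip1 and Mdm2 had log2 fold changes of 0.017, 0.10 and 0.078 in it, of opposite sign (limma adjusted p = 0.992, 0.961 and 0.953). Gtse1 and Phlda3 kept their sign, at -0.73 and -0.24. The share held by the members differed by 0.027 to 0.43 percentage points when each library was left out. The edgeR and DESeq2 fits on recovered reads were not run; limma voom was run on those reads in their place. Rps27a and Rpl19 rest on few reads, which limits what their values can show.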
